A study of Arabidopsis thaliana with 12 samples.

Results

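Roots of *Arabidopsis thaliana* take up iron by acidifying the soil, releasing phenolic compounds that hold ferric iron, reducing it at the root surface and importing ferrous iron. When iron is short, basic helix-loop-helix (bHLH) transcription factors induce the genes of this pathway, and the cell lowers iron stores and many proteins that carry iron as a cofactor. The response of wild type roots to iron deficiency is described here across all genes, including lowered genes and functions outside iron uptake. The comparison takes 6 of the 12 RNA-seq libraries of the series, chosen by their labels. They are 3 from iron sufficient (+Fe) and 3 from iron deficient (-Fe) wild type roots. Of 32678 genes in the count table, 20168 passed a filter on low counts and were tested.

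Wild type plants (Columbia) were germinated and kept for 12 days on B5 medium before a move to either medium for 3 days. According to the methods, +Fe medium held 100 μM FeNa-EDTA, and -Fe medium held the iron chelator ferrozine at 300 μM. The sample titles carry other numbers with no unit, which are not used here. Root tissue was taken, so a change can come from fewer cells of a type or from less RNA per cell, and these cannot be told apart. The remaining 6 libraries come from roots of the *clf* mutant, which carries a mutation in a histone methyltransferase gene, under the same media. They are not part of the wild type contrast, but they entered the fit that estimated the spread. The replicates are biological according to the methods, and p-values of the main test rest on the spread within the groups of all 12 libraries.

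Total counts in the wild type libraries lay between 18658428 and 23382529. Of the root markers, *PYK10*, a beta-glucosidase gene, lay between 3640 and 7855 FPKM, and *CASP1* of the Casparian strip and *SCR* of the endodermis were also present in every library. Genes of green tissue were detected too, and *CAB1* (chlorophyll binding) ranged from 82.5 to 306 FPKM in +Fe and from 12.6 to 147 FPKM in -Fe roots. Replicate 1 of either group stood apart from the rest of its group. Its mean correlation with the others was 0.934 in both cases, against 0.959 to 0.962 for replicates 2 and 3. The summed level of 25 circadian clock genes was 2331 and 2771 CPM (TMM-normalized counts scaled to library size) in these libraries and 1169 to 1226 CPM in the other 4. The clock list did not rise as a whole there. The median log2 deviation of its genes from the group mean was -0.05 in +Fe and -0.023 in -Fe replicate 1. *LHY*, a morning gene of the clock, stood at 6.63 and 5.38 CPM in the replicates 1 and at 58.9 to 100.5 CPM elsewhere. A list of 26 root hair and epidermis genes summed to 333 and 306 CPM against 634 to 1202 CPM. Of the *clf* libraries, +Fe replicate 2 and -Fe replicate 1 stood apart (0.9503 and 0.953, against 0.967 to 0.970), and their clock genes summed to 2239 and 2140 CPM against 1206 to 1332 CPM. All libraries were kept.

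Iron deficiency raised 459 genes, which is 2.28% of those tested, and lowered 431 genes (2.14%), at an adjusted p under 0.05 in edgeR's quasi-likelihood test. The increases were the larger changes. Of the raised genes 348 rose by at least 2-fold, 216 by at least 4-fold and 99 by at least 16-fold, with a median log2 fold change of 1.90. Of the lowered genes 307 fell by at least 2-fold, 71 by at least 4-fold and 10 by at least 16-fold, with a median of -1.27. The median over all genes tested was -0.003. For 455 raised and all 431 lowered genes every -Fe library lay on 1 side of every +Fe library, where 10.5% of all tested genes lay wholly above and 11.6% wholly below.

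**Figure D1:**
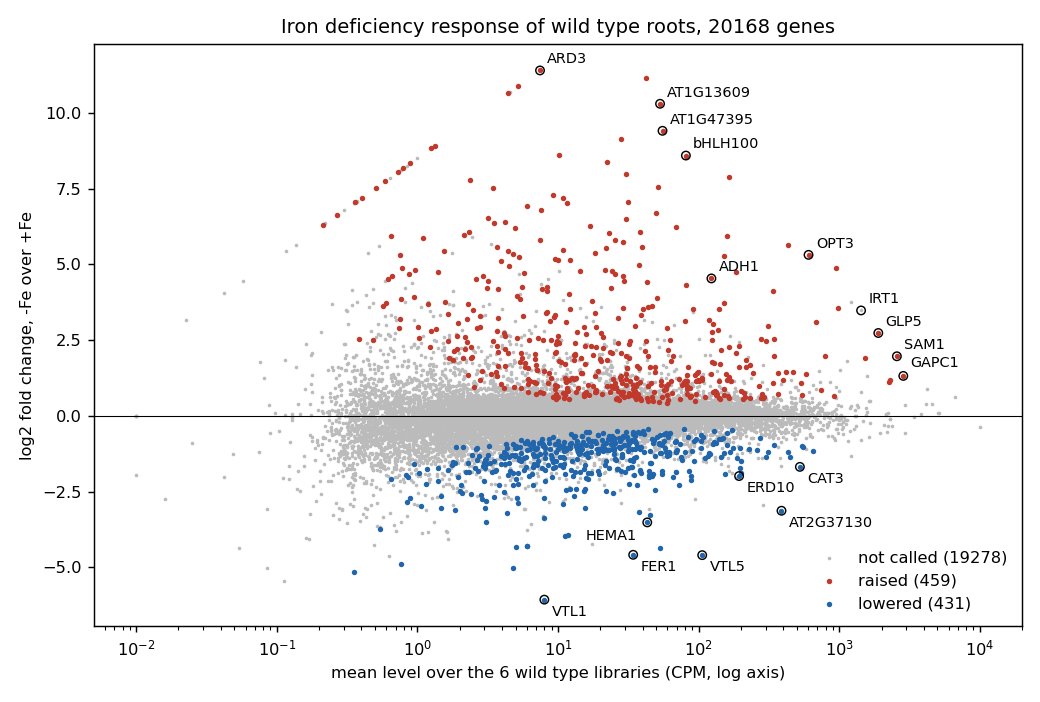
Log2 fold change of -Fe over +Fe (vertical axis) against the mean level over the 6 wild type libraries (CPM, log axis, with the lowest levels drawn at 0.01), 1 point per gene tested. The 459 raised genes (red) reach higher fold changes than the 431 lowered genes (blue), and the line of points at the upper left holds genes with 0 reads in +Fe roots, whose fitted fold change depends on the fit.

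The change also shifted the make-up of the transcriptome. Raised genes took 2.08, 2.26 and 2.23% of all counts in the +Fe libraries and 5.27, 7.01 and 7.15% in the -Fe libraries. Lowered genes took 2.47, 2.73 and 2.70% in +Fe and 1.11, 1.01 and 1.07% in -Fe. For either set the groups did not overlap, but the genes were chosen for their change between these libraries, so this separation is not by itself a result. Of the raised genes 117 exceeded 100 CPM under -Fe and 114 had been under 1 CPM in +Fe roots.

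Single libraries moved these counts. Without -Fe replicate 1 there were 795 raised and 617 lowered genes, and without both replicates 1 there were 739 (3.64%) and 843 (4.15%). The counts were 186 and 133 without -Fe replicate 2, 218 and 180 without -Fe replicate 3, 181 and 164 without +Fe replicate 2, 158 and 169 without +Fe replicate 3, while 281 lowered genes were counted without *clf* +Fe replicate 3. The replicates 1 of both groups deviated together. Replicates 2 and 3 did so across numbers as well, so whether they pair by number cannot be judged from this. A second fit of the 6 wild type libraries took the replicate number as a blocking term, with 2 residual degrees of freedom. This blocked fit called 1264 genes raised (6.45% of those it tested) and 1142 lowered (5.83%). It could test 448 of the raised genes and called 421 of them, and it called 382 of 428 lowered genes. Of the 169 called genes that were followed through the alternatives, 71 to 77 lost the call when any of the wild type replicates 2 and 3 was left out.

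Genes were grouped by role into 29 lists, and into 25 families by their annotated product. Against a background of 2.28% raised and 2.14% lowered, the largest shares of raised members were in the low-oxygen response (13 of 19), iron regulators (13 of 24), alternative respiration (8 of 15) and iron acquisition (6 of 12). The largest shares of lowered members were in iron storage (8 of 8), cold and drought response (4 of 12), zinc uptake and metal export (5 of 16) and antioxidant enzymes (5 of 17). Of the 54 lists and families 15 had 0 called members.

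**Figure D2:**
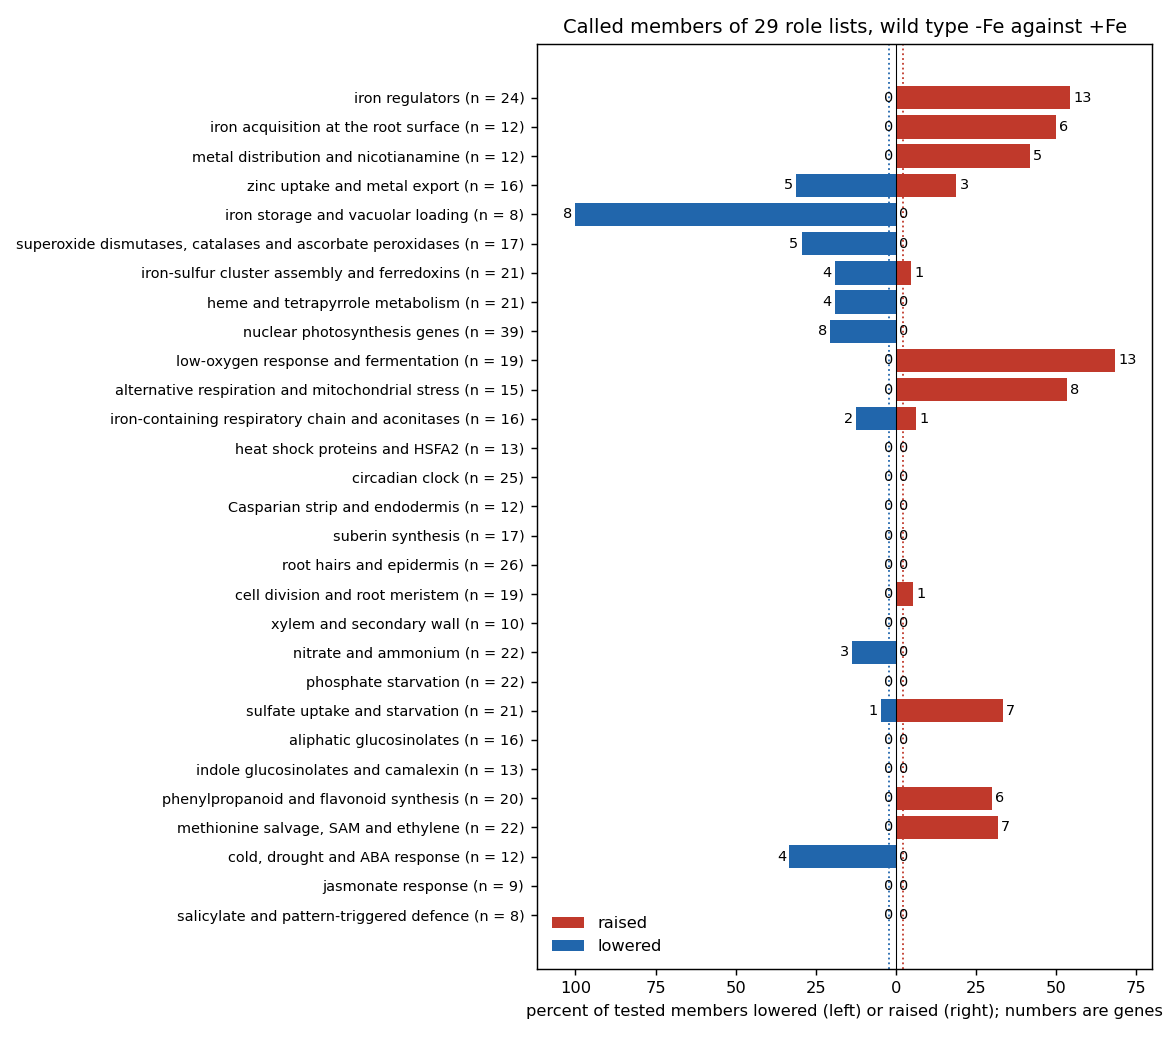
Percent of the tested members of each of 29 role lists that were raised (red, to the right) or lowered (blue, to the left), with the number of genes beside each bar. Dotted lines mark the shares among all genes tested, 2.28% and 2.14%, and all 8 iron storage genes lie on the lowered side.

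Among the iron regulators 13 of 24 tested members rose and 0 fell, with a median log2 fold change of 2.12. The blocked fit raised 15 and lowered 2 of the 22 it tested, and DESeq2 raised 14 and lowered 1. The 4 Ib subgroup bHLH genes, whose products pair with FIT (the bHLH factor that controls iron acquisition), went from very low to high levels. *bHLH38* stood at 0.169, 1.77 and 2.25 CPM in the +Fe libraries and at 279, 375 and 333 CPM in the -Fe libraries (log2 fold change 7.90, SE 0.82, adjusted p = 0.000674). *bHLH39* stood at 2.36, 7.04 and 5.95 CPM against 259, 332 and 343 CPM, and rose by 5.93 on the log2 scale (SE 0.40, adjusted p = 1.73e-05). The groups lay far apart for both, and +Fe replicate 1 was the lowest library. These similar neighbours may share reads, and a further gene overlaps *bHLH38* over 386 bases. *bHLH100* rose by 8.59 on the log2 scale (SE 0.68, adjusted p = 0.000107) and *bHLH101* by 5.59 (SE 0.35, adjusted p = 1.16e-05).

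The starts of these genes are shown because CACGTG, the G-box, is a sequence that bHLH factors are known to bind. Windows of 30 bases around it are given from the TAIR10.1 genome of RefSeq, 5′ to 3′ on the gene's strand, with the G-box in capitals. It begins 97 bases before the annotated start of *bHLH38* (chr3:21085325-21085354, minus strand) and 91 bases before that of *bHLH100* (chr2:17199528-17199557, minus strand).
*bHLH38*: cataggcttcgaCACGTGccaacctatgcc
*bHLH100*: aaagtgctcaacCACGTGtcaacgcatgtc
*BTS*, which encodes a ubiquitin ligase that acts on bHLH factors of this network, has 3 of them within 146 bases before its start (chr3:6273808-6273837, chr3:6273830-6273859 and chr3:6273884-6273913, plus strand).
*BTS*, farthest: gtaagacgcttgCACGTGtcgagatgtaat
*BTS*, middle: gatgtaatcggtCACGTGccaacctgggtt
*BTS*, nearest: gatgtgaatggcCACGTGctacaaaaccta
*OPT3* (chr4:9250404-9250433, minus strand), for a phloem iron transporter, and the lowered *FER4* (chr2:16833346-16833375, minus strand), for a ferritin, hold it too.
*OPT3*: gaccttcaacggCACGTGcgtctcacacgc
*FER4*: atctcgtacgtaCACGTGtctctcatccgc
The letters CACGTG read the same on both strands. In the 250 bases before and 50 bases after the start, they were absent for *bHLH39*, *bHLH101*, *PYE*, *FIT* and *IRT1*. They were also absent there for the ferritin gene *FER1*, for *VTL1*, AT1G47395, AT1G47400 and AT1G13609. In that stretch they occurred in 48 of 454 raised genes (10.6%), in 74 of 428 lowered genes (17.3%) and in 1710 of 19760 tested genes (8.65%). These shares are a description with no test.

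Further regulators of this network rose as well. *PYE*, a bHLH repressor, stood at 7.38, 4.69 and 7.05 CPM in +Fe and at 27.2, 35.9 and 29.2 CPM in -Fe roots (log2 fold change 2.27, SE 0.21, adjusted p = 0.000204). *BTS* stood at 66.2, 105.7 and 128 CPM against 532, 607 and 619 CPM (log2 fold change 2.55, SE 0.34, adjusted p = 0.00266). The MYB factor genes *MYB72* and *MYB10* rose by 6.92 and 4.82 on the log2 scale. A neighbour shares 829 bases with *MYB72*. AT1G74770 and AT1G18910, annotated as zinc ion binding, rose by 2.97 and 1.77.

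The neighbouring loci AT1G47395 (chromosome 1, 17382998 to 17383830) and AT1G47400 (17385707 to 17386485), annotated as uncharacterized proteins, were among the strongest changes. AT1G47395 had 0.127, 0.209 and 0.144 CPM in +Fe and 145, 99.5 and 87.6 CPM in -Fe roots, and its log2 fold change of 9.41 (SE 0.38) had an adjusted p of 5.99e-07. AT1G47400 followed with 9.12 (SE 0.59, adjusted p = 1.41e-05), and related neighbours may share reads. AT2G30766, which is also annotated as uncharacterized, had 0 reads in +Fe and 174 reads in -Fe roots, at least 53.9-fold higher when 3 counts are allowed for the +Fe group, and it shares 639 bases with another annotated gene.

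The IVc bHLH genes, which act upstream in this network, moved little. *bHLH34*, *bHLH104*, *ILR3* and *bHLH115* had log2 fold changes of 0.26, -0.24, 0.22 and 0.56, and none passed the test. *FIT* itself stood at 12.0, 40.9 and 38.2 CPM in +Fe and at 30.1, 156 and 168 CPM in -Fe roots. The groups overlapped, since -Fe replicate 1 lay below +Fe replicates 2 and 3, and the log2 fold change of 1.96 (SE 0.62) did not pass the test (adjusted p = 0.113). Each -Fe library was higher than the +Fe library of the same number. In the blocked fit *FIT* was called, with a log2 fold change of 1.81 and an adjusted p of 0.00475. It was also called without both replicates 1 (adjusted p = 0.0109) and with DESeq2 (0.00885). *FIT* was not called with the replicate block on all 12 libraries or with only the 6 wild type libraries and no block. Nor was it called when any 1 of the wild type replicates 2 and 3 was left out.

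Iron acquisition at the root surface followed the same pattern. Of 12 tested members 6 rose and 0 fell (median log2 fold change 3.45), and 11 rose in the blocked fit and 9 without both replicates 1. *IRT1*, the main ferrous iron transporter of the root surface, stood at 36.0, 332 and 339 CPM in +Fe and at 899, 3411 and 3567 CPM in -Fe roots. *FRO2*, the ferric chelate reductase, stood at 28.4, 224 and 250.4 CPM against 677, 2860 and 3273 CPM. For both genes every -Fe library exceeded every +Fe library, and in either group replicate 1 was the lowest. Their log2 fold changes of 3.48 (SE 1.02) and 3.76 (SE 1.00) nonetheless missed the threshold, at an adjusted p of 0.0898 and 0.0635. In the blocked fit they were called, at an adjusted p of 0.00638 and 0.00154, and DESeq2 called them too (0.00926 and 0.00264). Without both replicates 1 neither passed (0.0903 and 0.0576). *AHA2*, a plasma membrane proton pump, went from 1466, 3506 and 3902 CPM to 2600, 6606 and 7105 CPM, and its log2 fold change of 0.88 (SE 0.40) did not pass (adjusted p = 0.274), nor did it with DESeq2 (0.176). *AHA2* was called in the blocked fit (adjusted p = 0.00592) and without both replicates 1 (0.0296). With the replicate block on all 12 libraries, *IRT1*, *FRO2* and *AHA2* were not called. Nor were they with only the 6 wild type libraries and no block.

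Genes for coumarins, the phenolic compounds that mobilise ferric iron, were among those called. *F6'H1*, whose enzyme acts on the route to the coumarin scopoletin, stood at 42.0, 189.6 and 192 CPM in +Fe and at 375, 1603 and 1679 CPM in -Fe roots (log2 fold change 3.11, SE 0.62, adjusted p = 0.0191). *CYP82C4*, which oxidises coumarins further, went from 10.6, 89.0 and 89.4 CPM to 303, 2479 and 2747 CPM (log2 fold change 4.87, SE 1.18, adjusted p = 0.0427). The groups did not overlap for either gene. AT3G12900, annotated as a 2-oxoglutarate and Fe(II)-dependent oxygenase, rose by 5.63 on the log2 scale (SE 1.21). *IRT2* (log2 fold change 6.03, SE 0.84), *BGLU42* (3.02, SE 0.42) and the copper transporter gene *COPT2* (3.88, SE 0.66) completed the 6.

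Of the phenylpropanoid and flavonoid genes, which feed coumarin synthesis from phenylalanine, 6 of 20 rose and 0 fell, with a median of 1.01. They were *PAL1* and *PAL2*, at the entry of the pathway, and *4CL1*, *4CL2*, *HCT* and *CYP98A3*, which act at later steps. *PAL1* stood at 425, 728 and 770.1 CPM in +Fe and at 941, 3102 and 3157 CPM in -Fe roots (log2 fold change 1.91, SE 0.42, adjusted p = 0.0269). Without both replicates 1, 10 members were called higher and 2 lower.

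Metal distribution genes rose in part, with 5 of 12 members higher, 0 lower and a median of 1.58. In the blocked fit 8 rose, and without both replicates 1 there were 7. *NAS4*, a synthase of the metal chelator nicotianamine, went from 1.27, 2.09 and 2.11 CPM to 109.8, 163 and 134 CPM (log2 fold change 6.22, SE 0.40, adjusted p = 1.29e-05). *OPT3* stood at 16.4, 35.0 and 37.6 CPM against 1172, 1283 and 1087 CPM, and rose by 5.31 on the log2 scale (SE 0.41, adjusted p = 5.38e-05). Both were close to uniform across the -Fe libraries, replicate 1 included. *FRO3*, a mitochondrial ferric reductase, *NRAMP4*, which releases iron from the vacuole, and *ZIF1*, a vacuolar nicotianamine transporter, rose by 4.12, 2.19 and 2.76 on the log2 scale.

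**Figure D3:**
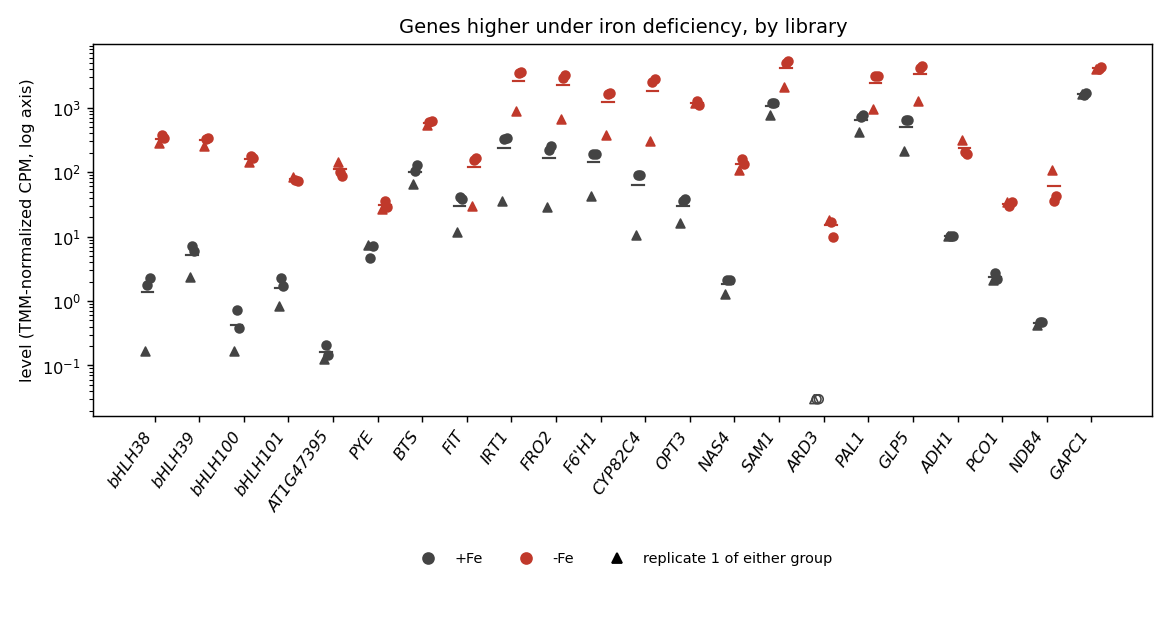
TMM-normalized CPM (log axis) in each +Fe (grey) and -Fe (red) library for 22 genes, with bars at the group mean and triangles for replicate 1. *FIT* is the gene whose groups overlap (11.98 to 40.9 and 30.1 to 168 CPM), and open symbols for *ARD3* mark 0 reads, drawn at 0.03.

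Transporters of zinc and exporters of metals went both ways. Of 16 members 3 rose and 5 fell, with a median of 0.08. The lowered genes were the zinc uptake genes *ZIP1*, *ZIP4*, *ZIP5* and *IRT3* and the metal exporter gene *IREG1*. *ZIP5* stood at 8.78, 13.04 and 12.3 CPM in +Fe and at 0.729, 0.271 and 0.737 CPM in -Fe roots (log2 fold change -4.28, SE 0.57, adjusted p = 0.00266). *IRT3* fell by 3.02 on the log2 scale (SE 0.35, adjusted p = 0.000986). The raised genes were *ZIP8*, *IREG2* (also named *FPN2*, a vacuolar metal transporter gene) and AT3G58060, a cation efflux family gene, with log2 fold changes of 5.14, 2.46 and 5.75.

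The 10 called genes that gained most CPM held 43.0% of the summed gain of all raised genes. This ranking leaves out genes that were not called. By the levels given above, *AHA2*, *IRT1* and *FRO2* each gained more CPM than *LOS2*, which is among the 10. Among the called genes *SAM1*, an S-adenosylmethionine synthetase gene, gained most. It stood at 775, 1185 and 1181 CPM in +Fe and at 2110, 4855 and 5322 CPM in -Fe roots (log2 fold change 1.97, SE 0.33, adjusted p = 0.00793). *GLP5*, a germin-like protein gene, followed with 209.6, 639 and 637 CPM against 1283, 4099 and 4512 CPM (log2 fold change 2.74, SE 0.55, adjusted p = 0.0196). The other 8 were *GAPC1*, *LOS2* and *FBA8* of glycolysis, *CYP82C4*, *PAL1*, *OPT3*, *F6'H1* and AT3G07720, a gene with no symbol in the annotation.

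The glycolytic genes changed by a modest factor at high level. *GAPC1*, for glyceraldehyde 3-phosphate dehydrogenase, lay at 1628, 1580 and 1696 CPM in +Fe and at 4000, 4000 and 4233 CPM in -Fe roots (log2 fold change 1.32, SE 0.22, adjusted p = 0.00773). *LOS2*, for enolase, went from 1608, 1278 and 1291 CPM to 3136, 3140 and 3263 CPM (log2 fold change 1.19, SE 0.17, adjusted p = 0.00362). *FBA8*, for fructose-bisphosphate aldolase, rose by 1.13 (SE 0.19, adjusted p = 0.00753). For *GAPC1* and *LOS2* replicate 1 lay close to the other libraries of its group, while for *FBA8* it was the lowest -Fe library (2639 CPM against 3385 and 3284 CPM).

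S-adenosylmethionine is the precursor of both nicotianamine and ethylene, and the methionine salvage (Yang) cycle recovers the methylthio group that these syntheses release. Of 22 genes for salvage, S-adenosylmethionine and ethylene synthesis 7 rose and 0 fell, with a median of 0.61. The salvage genes among them were *MTK*, *MTI1*, *DEP1*, *ARD2* and *ARD3*, which cover successive steps of the cycle, and their log2 fold changes other than that of *ARD3* lay between 1.15 and 1.71. *DEP1* was not called in the blocked fit (adjusted p = 0.0863). *ARD3*, for an acireductone dioxygenase, had 0 reads in the 3 +Fe libraries and 18.3, 16.7 and 9.71 CPM in the -Fe libraries, at least 320-fold higher when 3 counts are allowed for the +Fe group (adjusted p = 0.000466). *ACS2*, for an enzyme of ethylene synthesis, rose by 2.37 on the log2 scale (SE 0.23, adjusted p = 0.00035).

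The low-oxygen response, the programme by which plants switch to fermentation when oxygen is short, had the largest share of raised members among the role lists. Of 19 members 13 rose and 0 fell, with a median of 2.92, and 10 rose without both replicates 1. *ADH1*, for alcohol dehydrogenase, stood at 10.3, 10.1 and 10.2 CPM in +Fe and at 312, 205 and 192 CPM in -Fe roots (log2 fold change 4.54, SE 0.45, adjusted p = 0.000458). *PCO1*, for a plant cysteine oxidase that senses oxygen, stood at 2.11, 2.71 and 2.21 CPM against 34.4, 29.5 and 34.0 CPM (log2 fold change 3.80, SE 0.24, adjusted p = 1.16e-05). The spread within either group was small against the difference. *PDC1* of ethanol fermentation, *SUS4* of sucrose cleavage, the haemoglobin gene *HB1*, the regulators *HRA1* and *LBD41*, and *PCO2* rose by log2 fold changes between 2.36 and 3.55. The ethylene-forming *ACO1* (2.41, SE 0.24) and the NADPH oxidase gene *RBOHD* (2.48, SE 0.41) also rose, and *RBOHD* was not called in the blocked fit (adjusted p = 0.0584). *FTM1*, AT4G10270 and AT4G17260 (lactate/malate dehydrogenase family) completed the 13.

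Alternative respiration and mitochondrial stress genes rose with 8 of 15 members and 0 fell, with a median of 2.97. *AOX1A*, for the alternative oxidase that bypasses the cytochrome pathway, had a mean of 53.3 CPM in +Fe and 144.6 CPM in -Fe roots (log2 fold change 1.44, SE 0.28, adjusted p = 0.0148). *NDB4*, for an alternative NAD(P)H dehydrogenase, stood at 0.422, 0.469 and 0.479 CPM against 107.3, 36.2 and 42.6 CPM (log2 fold change 7.07, SE 1.09, adjusted p = 0.00549). *NAC13*, a regulator of mitochondrial signals to the nucleus, went from 4.35, 11.6 and 7.91 CPM to 81.3, 53.9 and 51.1 CPM (log2 fold change 2.97, SE 0.47, adjusted p = 0.00612). For *NDB4* and *NAC13* -Fe replicate 1 was the highest library. Without both replicates 1 the number raised was 3, and in the blocked fit it was 10. Other members that rose were *NDB2*, AT2G21640 (annotated as a marker for oxidative stress response), AT5G51440, *UGT74E2* and *SOT12*, a sulfotransferase gene that did not pass without both replicates 1 (adjusted p = 0.0543).

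The list of sulfate uptake and starvation genes had 7 members raised and 1 lowered of 21, with a median of 0.69. Those that rose include the assimilation genes *APS1*, *APR1* and *APR3* (log2 fold changes of 0.70, 1.37 and 0.98), the sulfur starvation marker *LSU2* (1.90), AT1G04770 (1.19) and *BGLU28* (5.45), for a beta-glucosidase. *SDI1*, a repressor of glucosinolate synthesis under low sulfur, stood at 1.81, 0.835 and 1.49 CPM in +Fe and at 7.003, 28.9 and 31.9 CPM in -Fe roots (log2 fold change 4.02, SE 0.76, adjusted p = 0.0150). *SIR*, for sulfite reductase, an enzyme with siroheme and an iron-sulfur cluster, moved the other way. It lay at 401, 438 and 470.2 CPM against 132, 221 and 218 CPM (log2 fold change -1.20, SE 0.28, adjusted p = 0.0371), and did not pass without both replicates 1 (adjusted p = 0.0666).

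The largest fold changes also include loci with little annotation. AT1G13609, a defensin-like gene, stood at 0, 0.157 and 0.0959 CPM in +Fe and at 106.9, 114 and 98.5 CPM in -Fe roots, and rose by 10.3 on the log2 scale (SE 0.47, adjusted p = 1.44e-06). AT5G09570, a Cox19-like gene, had 2 reads in +Fe and 5975 in -Fe roots, a ratio of 2776 with a 95% exact interval of 768 to 22927 that covers counting error only. It had 161, 46.5 and 44.7 CPM in the -Fe libraries and was not called without both replicates 1 (adjusted p = 0.0547). AT5G52930 and AT5G52940, adjacent loci of the same unknown family (DUF295), behaved alike, with 0 and 3 reads in +Fe roots against 628 and 1426 reads. They too had their highest level in -Fe replicate 1 and lost the call without both replicates 1 (adjusted p = 0.0950 and 0.0692). AT2G30670 (Rossmann-fold family), AT4G08867, AT1G13608 (defensin-like) and AT4G17690 (peroxidase family) had 0 reads in +Fe roots and 690, 124, 106 and 97 reads in -Fe roots. The levels are at least 214, 38.4, 32.8 and 30.04-fold higher when 3 counts are allowed for the +Fe group. AT4G08867 did not pass without both replicates 1 (adjusted p = 0.0792), and the blocked fit could not test AT4G17690. AT1G12030 rose by 8.39 on the log2 scale (SE 0.60, adjusted p = 3.49e-05) with nearly equal -Fe levels of 44.8, 43.4 and 44.3 CPM.

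Iron storage was the list with every member called. All 8 tested genes for ferritins and vacuolar iron loading fell, with a median log2 fold change of -4.45. Ferritins hold iron in plastids and mitochondria. *FER1* stood at 79.3, 61.8 and 56.2 CPM in +Fe and at 2.51, 2.62 and 3.08 CPM in -Fe roots (log2 fold change -4.58, SE 0.50, adjusted p = 0.000821), and an antisense gene overlaps it over 1334 bases. *FER4* went from 15.74, 9.65 and 9.02 CPM to 0.891, 0.361 and 0.460 CPM (log2 fold change -4.31, SE 0.42, adjusted p = 0.000338). *FER2* fell by 3.52 on the log2 scale (SE 0.32) and *FER3* by 1.82 (SE 0.35), so *FER3* kept the highest -Fe level of the ferritin genes in CPM (12.4, not corrected for length).

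Vacuolar iron transporter genes move iron into the vacuole. *VTL1* stood at 11.3, 17.7 and 18.3 CPM in +Fe and at 0.445, 0.0451 and 0.184 CPM in -Fe roots, the most negative log2 fold change among the genes named by the rule (-6.06, SE 0.76, adjusted p = 0.002). *VTL5* went from 80.7, 281 and 249.8 CPM to 10.2, 5.59 and 9.48 CPM (log2 fold change -4.60, SE 0.68, adjusted p = 0.00465). *VTL2* fell less, from 6.88, 11.9 and 12.7 CPM to 5.10, 4.15 and 3.77 CPM (log2 fold change -1.27, SE 0.25, adjusted p = 0.0161), and in the blocked fit it missed the threshold (adjusted p = 0.0523). *VIT1* had 46 reads in +Fe and 1 read in -Fe roots, a ratio of 49.5 with a 95% exact interval of 8.45 to 1997. It did not pass without both replicates 1 (adjusted p = 0.0789) and was too low to be tested in the blocked fit.

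Of 17 superoxide dismutase, catalase and ascorbate peroxidase genes 5 were lowered and 0 raised, with a median of -0.53. The 5 lowered genes were the 3 catalase genes and *APX1* and *SAPX*, for ascorbate peroxidases, whose products carry heme, and the other ascorbate peroxidase genes tested did not pass. DESeq2 and the blocked fit each called 1 member raised. *CAT3* stood at 1041, 669.5 and 693 CPM in +Fe and at 346.5, 169 and 233 CPM in -Fe roots (log2 fold change -1.68, SE 0.34, adjusted p = 0.0191). *CAT2* lay at 243, 352.5 and 349 CPM against 54.97, 92.2 and 107.8 CPM (log2 fold change -1.89, SE 0.29, adjusted p = 0.00471). *CAT1* fell by 2.55 on the log2 scale, *SAPX* by 2.27 and *APX1* by 1.36. *APX1* did not pass without both replicates 1 (adjusted p = 0.0807).

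Genes for other enzymes with iron cofactors were lowered one by one rather than as whole lists. *ACO3*, an aconitase gene with an iron-sulfur product, stood at 686, 949.9 and 1084 CPM in +Fe and at 311, 450.3 and 456 CPM in -Fe roots (log2 fold change -1.16, SE 0.23, adjusted p = 0.0172). *NIR1*, for nitrite reductase, another siroheme and iron-sulfur enzyme, went from 110.7, 188 and 201 CPM to 38.0, 84.9 and 75.3 CPM (log2 fold change -1.33, SE 0.29, adjusted p = 0.0259). With *UPM1*, whose enzyme makes the siroheme precursor (-0.88, SE 0.19), and the regulator *LBD39* (-1.69, SE 0.20), it made up the 3 lowered of 22 nitrate and ammonium genes, of which 0 rose. Of 16 genes for iron-containing respiratory proteins and aconitases *ACO3* and *CYTC-2* fell and *CYTC-1* rose, with a median of -0.05. The paired cytochrome c genes thus moved in opposite directions, by -1.27 (SE 0.30) and 0.58 (SE 0.13), and *CYTC-2* did not pass without both replicates 1 (adjusted p = 0.0725).

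Of 21 genes for iron-sulfur cluster assembly and ferredoxins 4 fell and 1 rose, with a median of 0.03. *ABCI8*, for a subunit of the plastid assembly scaffold, stood at 57.8, 74.1 and 70.4 CPM in +Fe and at 6.64, 6.09 and 9.71 CPM in -Fe roots (log2 fold change -3.17, SE 0.41, adjusted p = 0.00236). The others that fell, *NFU3*, *HCF101* and the ferredoxin gene *FED A*, have plastid products as well, while the raised *NBP35* (log2 fold change 0.46, SE 0.11) belongs to the cytosolic machinery. *NFU3* was not called in the blocked fit (adjusted p = 0.0601). Neither *NFU3* (adjusted p = 0.0881) nor *NBP35* (adjusted p = 0.1002) passed without both replicates 1.

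Heme and chlorophyll share a tetrapyrrole pathway, and 4 of its 21 tested genes fell and 0 rose, with a median of -0.53. *HEMA1*, the entry enzyme, stood at 67.6, 86.9 and 83.5 CPM in +Fe and at 8.42, 4.78 and 7.60 CPM in -Fe roots (log2 fold change -3.52, SE 0.46, adjusted p = 0.00268). *GUN5*, *CHLM* and *CRD1* of the chlorophyll branch fell by 2.46, 1.42 and 1.83 on the log2 scale. Without both replicates 1 *GUN5* missed the threshold (adjusted p = 0.0579).

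Nuclear genes for photosynthesis, few of whose products act in roots, were lower. Of 39 tested members 8 fell and 0 rose, with a median of -1.53, and in the blocked fit 24 fell and 22 fell without both replicates 1. *LHCA4*, of the photosystem I antenna, stood at 149, 135 and 138 CPM in +Fe and at 58.2, 21.0 and 28.6 CPM in -Fe roots (log2 fold change -1.97, SE 0.38, adjusted p = 0.0154). The other called members were *PSAF*, *PSAN*, *PSBO1*, *PSBR*, *RCA*, *PETC* and *DRT112*. This list was also the marker of green shoot tissue. Summed over its 39 genes, the level was 1610, 1031 and 970.5 CPM in the +Fe libraries and 782, 172 and 237 CPM in the -Fe libraries, so replicate 1 was the highest of either group. *RBCS1A*, for the small subunit of Rubisco, overlapped between the groups (80.4, 38.1 and 30.5 FPKM against 71.2, 7.74 and 12.1 FPKM). The part of green tissue in the lowered plastid genes of this and the preceding lists was not tested.

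**Figure D4:**
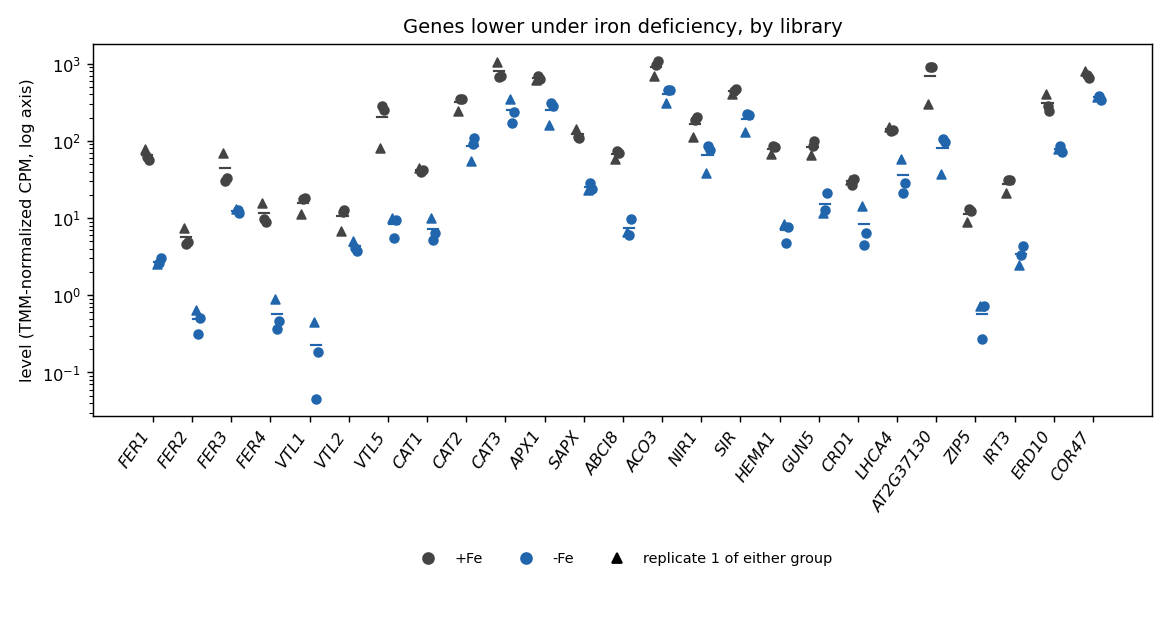
TMM-normalized CPM (log axis) in each +Fe (grey) and -Fe (blue) library for 25 genes, with bars at the group mean and triangles for replicate 1. The groups do not overlap for any gene shown, and the fall is widest for *VTL1*, *FER1*, *VTL5* and *FER4* (log2 fold changes of -6.06, -4.58, -4.60 and -4.31).

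In level rather than fold, the greatest loss among the called genes was that of a peroxidase gene. AT2G37130 stood at 298, 901 and 893.5 CPM in +Fe and at 37.6, 104.9 and 96.5 CPM in -Fe roots (log2 fold change -3.13, SE 0.51, adjusted p = 0.00753). The other 9 genes that lost most were *CAT3*, *ACO3*, *APX1*, *SIR*, the peroxidase gene *PRXCB*, the dehydrin genes *COR47* and *ERD10*, the protease inhibitor gene *KTI1* and AT2G25450, a gene for an oxygenase that uses 2-oxoglutarate and iron. These 10 genes held 26.7% of the summed loss of all lowered genes.

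Genes of the cold, drought and abscisic acid response fell in part, with 4 of 12 members lower, 0 higher and a median of -1.04. Dehydrins protect cells that lose water. *ERD10* stood at 406, 280.3 and 243 CPM in +Fe and at 77.6, 85.1 and 72.1 CPM in -Fe roots (log2 fold change -1.99, SE 0.20, adjusted p = 0.00035). Its neighbour and close relative *COR47* lay at 795, 707 and 659 CPM against 372, 380 and 343 CPM (log2 fold change -0.98, SE 0.17, adjusted p = 0.00909), and reads may be shared between them. *COR413-PM1* and *RAB18* fell by 1.09 and 1.78 on the log2 scale, and in the blocked fit 8 members fell. *RAB18* did not pass without both replicates 1 (adjusted p = 0.0898).

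The remaining large decreases were spread over other functions. AT3G49160, a pyruvate kinase family gene, went from 9.79, 8.55 and 9.30 CPM to 0.162, 0.361 and 0.322 CPM (log2 fold change -5.02, SE 0.60, adjusted p = 0.00133). AT3G59930, a defensin-like gene, went from 33.3, 149.7 and 123 CPM to 4.17, 4.83 and 6.03 CPM (log2 fold change -4.35, SE 0.65, adjusted p = 0.00465), whereas the defensin-like AT1G13609 was among the strongest increases. *CYP76G1* had 90 reads in +Fe and 3 reads in -Fe roots, a ratio of 32.3 with a 95% exact interval of 10.7 to 159.5. AT2G36885 (annotated as a translation initiation factor), the amino acid exporter gene *UMAMIT29*, AT2G41810 (DUF642), AT2G44920 and AT1G68650 (UPF0016) completed the 15 largest decreases, with log2 fold changes between -4.31 and -3.36. *AT2G44920* did not pass without both replicates 1 (adjusted p = 0.0592).

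Large enzyme families showed calls in both directions, to be read against 2.28% raised and 2.14% lowered over all genes. Of 148 cytochrome P450 genes 5 rose (3.38%) and 10 fell (6.76%), with a median of -0.24. *CYP710A1*, for a sterol desaturase, stood at 28.2, 105.3 and 110.1 CPM in +Fe and at 5.59, 9.97 and 9.85 CPM in -Fe roots (log2 fold change -3.26, SE 0.46, adjusted p = 0.00355). Of 78 oxygenases that use 2-oxoglutarate and ferrous iron 3 rose (3.85%), with *F6'H1* and AT3G12900 among them, and 5 fell (6.41%). AT5G05600 of this family fell by 2.01 on the log2 scale (SE 0.18, adjusted p = 0.000213). Of 56 class III peroxidases, heme enzymes of the cell wall, 4 rose (7.14%) and 2 fell (3.57%). Among 36 tau and phi glutathione S-transferases *GSTU22*, *GSTU24* and *GSTU25* rose (8.33%) and *GSTF3* fell (2.78%), and *GSTU24* and *GSTU25* did not pass without both replicates 1 (adjusted p = 0.0596 and 0.120).

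Called members were also found in several transcription factor families. Of 59 WRKY genes 4 rose (6.78%) and 1 fell (1.69%). *WRKY62* went from 0.0422, 0.209 and 0.432 CPM to 6.19, 13.3 and 8.43 CPM (log2 fold change 5.35, SE 0.72, adjusted p = 0.00269). Of 83 bHLH genes 6 rose (7.23%), 5 of them *PYE* and the Ib genes, and 3 fell (3.61%), with *ICE1* of the cold response among these (log2 fold change -1.50, SE 0.25, adjusted p = 0.00683). Of 59 NAC genes 3 rose (5.08%) and 0 fell, and of 54 ERF and DREB genes 2 rose (3.70%) and 4 fell (7.41%). Apart from transcription factors, 2 of 57 pectin methylesterase and inhibitor genes rose (3.51%) and 0 fell. They were AT3G10720 (log2 fold change 1.33) and *PME41*. *PME41* stood at 7.60, 8.09 and 7.14 CPM in +Fe and at 107.8, 383 and 389 CPM in -Fe roots (log2 fold change 5.27, SE 0.48, adjusted p = 0.000255).

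Several programmes of root growth, nutrition and stress had 0 members called in the fit of all 12 libraries. These were root hairs and epidermis (26 genes, median 0.70), the circadian clock (25, -0.27), phosphate starvation (22, -0.36), suberin (17, -0.03), aliphatic glucosinolates (16, 0.56), heat shock proteins (13, 0.33), indole glucosinolates (13, -0.11), Casparian strip (12, 0.22), xylem (10, -0.34), jasmonate (9, -0.58) and salicylate and pattern-triggered defence (8, 0.65). Other settings gave calls in most of these lists. Without both replicates 1, where 3.64% of all genes rose and 4.15% fell, 5 heat shock genes rose and 1 fell. There 2 root hair genes rose and 1 fell. In that fit 2 salicylate genes also rose and 1 indole glucosinolate gene fell. The summed level of the heat shock list was 579.6, 126.5 and 121.7 CPM in +Fe and 305.8, 641.5 and 521.5 CPM in -Fe roots. The blocked fit raised 6.45% and lowered 5.83% of all genes it tested. Among these lists it lowered 4 phosphate starvation, 3 clock, 1 suberin and 1 jasmonate genes. It raised 2 genes each of the Casparian strip, aliphatic glucosinolate and salicylate lists. Counts of 1 or 2 genes are not read as a response of a list. In the same fit 11 root hair genes rose and 1 fell. The gene that fell was *RSL2*, a root hair bHLH gene, at 2.24, 15.3 and 13.4 CPM in +Fe and 0.202, 2.12 and 1.33 CPM in -Fe roots, which missed the threshold in the fit of all 12 libraries (log2 fold change -3.08, SE 0.78, adjusted p = 0.0504). Of 19 genes for cell division and the root meristem 1 rose. This was *TSO2*, for the small subunit of ribonucleotide reductase, an enzyme with an iron centre, at 49.8, 32.0 and 29.8 CPM against 319.9, 166 and 154 CPM (log2 fold change 2.52, SE 0.34, adjusted p = 0.00268).

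The same response in *clf* roots is set beside these values. Of the 459 raised genes 457 had a positive log2 fold change in *clf* and 216 were called there, where 257 genes (1.27%) were raised. Of the 431 lowered genes 429 had a negative value and 89 were called, among 99 lowered genes (0.491%). The share of all tested genes with the same direction in both genotypes was not counted, so the shared directions have no background here. Against medians of 1.90 and -1.27 in wild type, the same raised and lowered genes had median log2 fold changes of 1.47 and -0.78 in *clf*. The genes were chosen for their change in wild type, so a smaller value in *clf* is not by itself a result. The difference between the responses, tested itself on all 12 libraries with edgeR, passed for 0 genes. An unadjusted p under 0.05 was reached by 160 genes with a higher and by 160 with a lower log2 fold change in *clf*. These counts rest on the libraries that stand apart. Without the 4 of them, an alternative chosen after seeing the data that leaves 2 libraries a group and takes out the least alike ones, *clf* roots had 1790 raised (8.92%) and 1133 lowered genes (5.64%). Of the wild type genes 357 of 459 raised and 247 of 430 lowered were then called in *clf*, and the direction was shared by 454 and 422. The difference between the responses then passed for 348 genes with a higher and 103 with a lower log2 fold change in *clf*, so it is not shown that the genotypes respond alike.

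**Figure D5:**
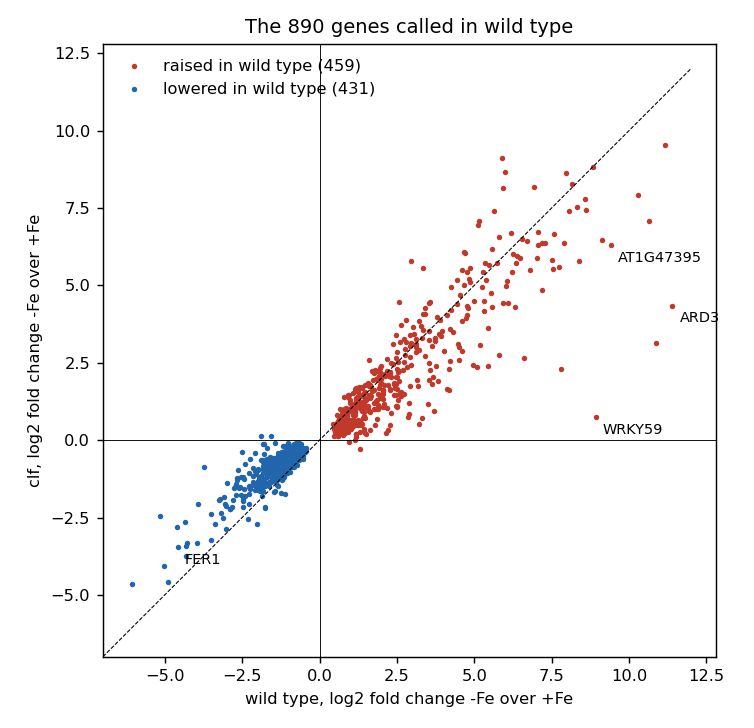
Log2 fold change of -Fe over +Fe in *clf* (vertical axis) against that in wild type (horizontal axis) for the 459 raised and 431 lowered genes of wild type, with a dashed line where both are equal. Nearly all genes share the direction (457 of 459 raised and 429 of 431 lowered), and *WRKY59* lies below the dashed line, at a wild type position that depends on the fit since it had 0 reads in +Fe roots.

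*WRKY59* had the smallest p for that difference. It had 0 reads in +Fe wild type roots and 2.47, 2.57 and 2.95 CPM in -Fe wild type roots, at least 56.4-fold higher when 3 counts are allowed for the +Fe group, while its mean in *clf* was 0.353 CPM with and 0.598 CPM without iron. The difference between the responses did not pass the test (adjusted p = 0.0928), but passed without the 4 libraries that stand apart (adjusted p = 0.0103).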

How the data were processed

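Total RNA of roots was sequenced by the authors (stranded mRNA libraries, paired-end reads) and mapped on TAIR10. The submitters' notes name TopHat2. The authors deposited raw read counts per gene (HTSeq, union mode) and FPKM values made from them. For the strand setting of the counting nothing was found in the labels or methods, and levels of overlapping genes are uncertain for this reason. Names come from the RefSeq annotation of TAIR10.1, which holds 31912 of 32678 gene IDs.

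Counts of all 12 libraries (4 groups of 3) entered 1 robust quasi-likelihood fit with 8 residual degrees of freedom. It used TMM factors and edgeR's default low-count filter (edgeR 4.0.16, R 4.3.3). P-values were adjusted by Benjamini and Hochberg over 20168 genes, at a threshold of 0.05. The test was also run on simulated counts with no replicate structure, which does not cover libraries that stand apart. CPM values are TMM-normalized, and deposited FPKM values served for tissue markers and as an alternative with limma 3.58.1. The smallest library held 18658428 counts. The common dispersion had a square root of 0.302. For a gene with 0 reads in a group, a lower bound was set with 3 counts over that group. Intervals of ratios are exact (Clopper-Pearson, 95%) and cover counting error only.

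Deviations from the group mean of same-numbered +Fe and -Fe libraries correlated at 0.616, 0.44 and 0.463. Replicates 2 and 3 correlated nearly as much across numbers (0.412 and 0.429). Deviations from the mean cancel within a group, so where replicate 1 stands apart the other replicates tend to deviate together. These values therefore cannot show whether replicates 2 and 3 pair by number. The blocked fit takes the pairing by number as given and has 2 residual degrees of freedom. Whether a number marks a shared batch or harvest was not stated. The main fit has no block, as in the study's methods.

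Genes named are the 15 largest increases and decreases among called genes with a group mean of 1 CPM or more and no overlap, the 10 largest gains and losses in CPM, up to 4 called members of each list, and *FIT*, *IRT1*, *FRO2*, *AHA2* and the iron regulator and storage genes. Further called members and the values of single libraries were added after they were seen. The members, lists and this rule were chosen with earlier results of these data known. Alternatives were DESeq2 1.42.0, RLE factors, other filters, replicate blocks, only the 6 wild type libraries, log2(FPKM + 1) and log2(FPKM + 0.1), and leaving libraries out. The fit without the 4 libraries that stand apart was added after seeing the data.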

Additional observations from a re-analysis of the deposited data

How the results depend on the processing

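DESeq2 called 896 genes raised and 850 lowered. A fit of only the 6 wild type libraries, which has fewer residual degrees of freedom, called 237 and 177. With the replicate block added to that fit there were 1264 and 1142. Leaving out the pair of wild type libraries that stand apart gave 739 and 843. Leaving out single libraries gave 158 to 795 raised and 133 to 617 lowered genes. The replicate block on all 12 libraries, other filters, RLE factors and FPKM values kept both counts within 1.5 times. In an alternative added after seeing the data, without the 4 libraries that stand apart, *clf* roots had 1790 raised and 1133 lowered genes in place of 257 and 99. The difference between the genotypes then passed for 348 genes higher and 103 lower in *clf* in place of 0.

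Of 3755 values computed for 173 named genes under these alternatives, 0 changed sign. Among the 169 of them called in the main test 74 kept the call under every alternative that could test them, and 572 values lost it. Among called genes, the 10 largest gains in CPM without any 1 wild type library held 9 to 10 of the same genes. The 10 largest losses held 8 to 10. With 3 libraries a group, of which replicate 1 stands apart, a gene that is not called was not shown to be unchanged.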
